A study of Danio rerio with 3 samples.

Results

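Fibroblast growth factor (FGF) signalling was followed through the levels of 10 genes in single cells of the developing zebrafish hindbrain. The genes are 3 ligands, *fgf8a*, *fgf20a* and *fgf20b*, and 7 genes that are switched on by the pathway and are widely read as its targets: the ETS transcription factor genes *etv4*, *etv5a* and *etv5b*, the sprouty genes *spry1*, *spry2* and *spry4*, and *dusp6*. They were chosen by symbol from the 27282 genes of the count files, with earlier results of these data known. All 10 are listed in each of the 3 libraries.

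Secreted FGFs bind receptor tyrosine kinases and activate the Ras-MAPK cascade in nearby cells. The cascade switches on Etv transcription factors, and also sprouty proteins and the MAPK phosphatase Dusp6, which feed back to dampen it, so that the transcripts of these genes serve as a readout of the signal. In the zebrafish brain, Fgf8 is made at the midbrain-hindbrain boundary (MHB), an organiser that patterns midbrain and anterior hindbrain, while later Fgf20 from neurons located at the centre of each segment holds neighbouring progenitors back from differentiation.

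The cells came from wild-type (wt) embryos of the LondonAB strain, without mutation, transgene or drug. Embryos at 16 hours post fertilisation (hpf) had been grown at 25°C, embryos at 24 hpf at 28.5°C and embryos at 44 hpf at 25°C. For each stage the hindbrain was dissected with tissue around it, about 40 pieces were pooled, and 1 droplet library was made in which each captured transcript carries a unique molecular identifier (UMI). With 1 library per stage there was no replicate and no test between stages or cell groups: the intervals given are exact 95% intervals that cover counting error only, and stage cannot be told apart from library, sequencing depth or growth temperature.

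The files hold 2929, 2568 and 3529 cells at 16, 24 and 44 hpf, with 28566809, 25733058 and 12351301 UMIs. After outlying cells were set aside, 2725, 2337 and 3097 remained, with medians of 9940, 7852 and 2605 UMIs per cell, so that the 44 hpf library was the shallowest. The libraries shared 8 to 18 cell barcodes pairwise. Cells of neural clusters with more UMIs of *sox3*, a progenitor gene, than of *elavl3*, a neuronal RNA-binding protein gene, are called sox3 cells (1737, 1440 and 994 by stage), and those with at least 2 UMIs of *elavl3* and more *elavl3* than *sox3* are called elavl3 cells (20, 204 and 1226). These classes cut a continuous range: both genes were within 2-fold of each other in 2.88%, 11% and 13% of these cells plus those in neither class. Among elavl3 cells alone, 13 of the 20, 54 of the 204 and 132 of the 1226 were within 2-fold, so that the early elavl3 cells lay nearer the cut. Neural cells with *elavl3* and no *sox3* UMI numbered 53 at 24 hpf and 1074 at 44 hpf. Non-neural cells (930, 550 and 408) are those of clusters named from marker genes as neural crest-, head mesenchyme-, epidermis-, otic vesicle- or vasculature-like, and cranial ganglia-like cells (24, 116 and 140) were kept apart. Cluster names rest on marker lists and are given as "-like" because no annotation of cells was used here. RNA from other cells was present in the droplets: *krt4*, a surface keratin gene, had a UMI in 51.8% of sox3 cells at 16 hpf and in 57.5% of non-neural cells, but at levels of 78.8 against 1319 CPM (summed UMIs of a gene over those of all genes, scaled to 1000000).

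Of the 10 genes, *spry2* was the most often counted, with 1593, 994 and 301 UMIs in all kept cells at 16, 24 and 44 hpf. It was followed by *etv5b* (1089, 897 and 297 UMIs), *dusp6* (876, 913 and 100 UMIs) and *etv5a* (792, 650 and 124 UMIs). The ligand *fgf8a* had 720, 22 and 3 UMIs, *fgf20b* had 279, 212 and 7, and *fgf20a* only 2, 15 and 3. The remaining response genes were *etv4* (378, 303 and 36 UMIs), *spry4* (182, 66 and 30) and *spry1* (48, 36 and 10), so that statements on *fgf20a* and *spry1* rest on few molecules.

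**Figure D1:**
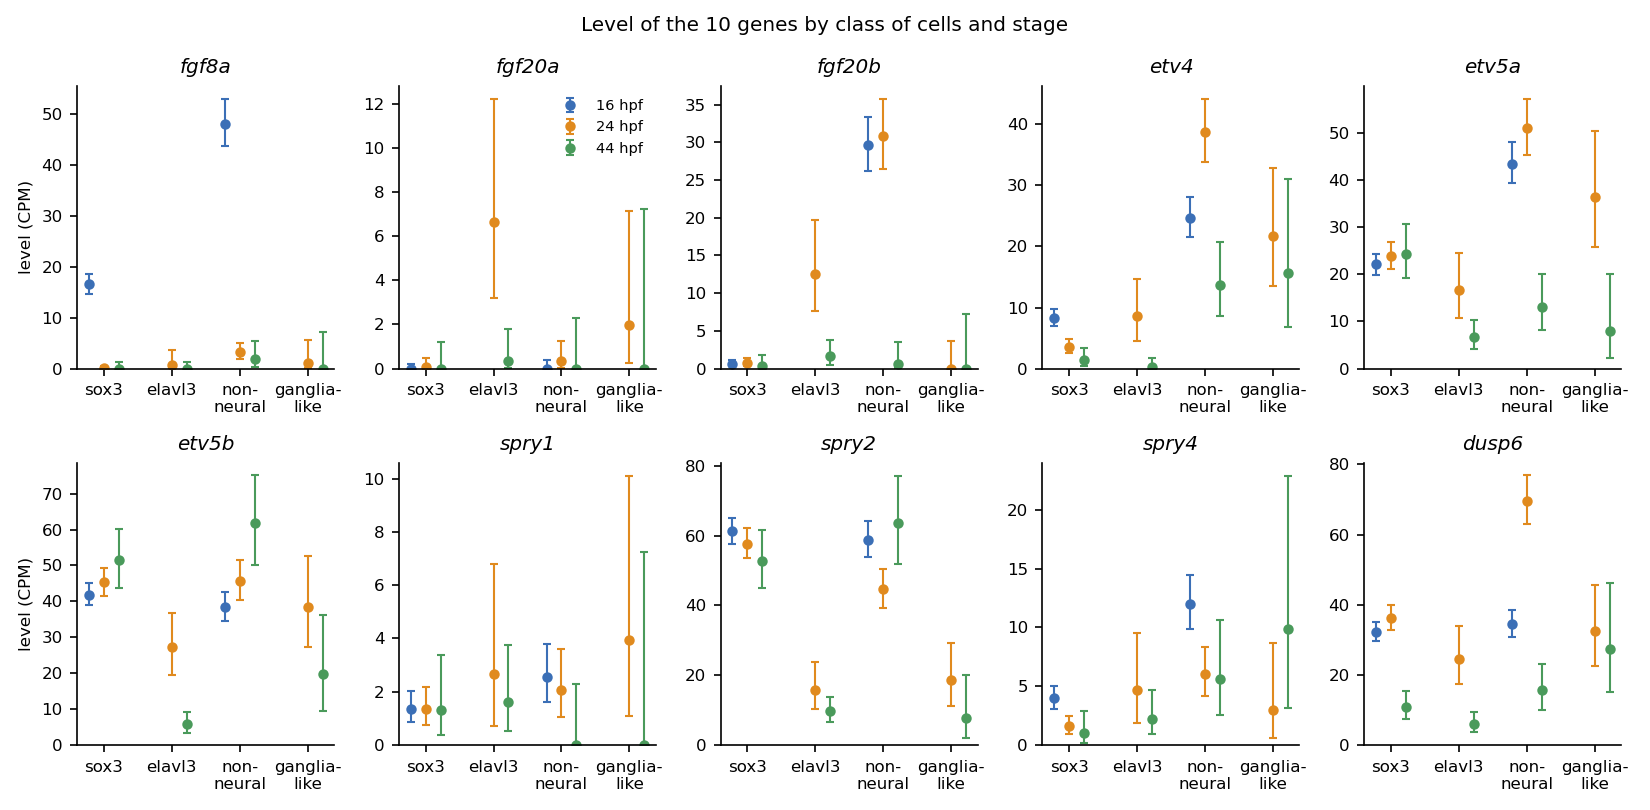
Level of each gene in CPM (y axis, linear, a different range per panel) in sox3 cells, elavl3 cells, non-neural cells and cranial ganglia-like cells (x axis) at 16, 24 and 44 hpf (colours), with exact Poisson 95% intervals as bars. The elavl3 and ganglia-like groups of 16 hpf, with 20 and 24 cells, are not drawn. The high points of *fgf8a* are at 16 hpf, *fgf20b* is high in non-neural cells at 16 and 24 hpf, and *etv5b* and *spry2* stay near 1 level in sox3 cells.

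The ligand *fgf8a* was almost confined to the 16 hpf library. In sox3 cells its level was 16.5 CPM (95% interval 14.6 to 18.5) at 16 hpf, it was 0.0841 CPM from a single UMI at 24 hpf, a ratio of 0.0051 (0.000129 to 0.0287), and no UMI was found at 44 hpf, with an upper limit of 1.22 CPM. Elavl3 cells held 0, 1 and 0 *fgf8a* UMIs at the 3 stages. At 16 hpf, 39.3% of all *fgf8a* UMIs lay in sox3 cells and 60.4% in non-neural cells, so that the larger share of this ligand in the dissected pieces was outside the neural tube.

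Within the 16 hpf sox3 cells, *fgf8a* followed *eng2a* and *eng2b*, homeobox genes of the MHB and first rhombomere. The 133 eng2 cells, defined by at least 1 UMI of either gene, had 141 CPM (122 to 162), and the other 1604 sox3 cells had 5.58 CPM (4.47 to 6.87), a ratio of 25.3 (19.5 to 32.9). A UMI of *fgf8a* was seen in 47 of the 133 eng2 cells, 35.3%, with a median of 3 UMIs where found and up to 17. It was seen in 4.24% of the other sox3 cells and in 1.42% of neural crest-like cells, a tissue taken here as background. With each cell thinned to 2000 UMIs these shares were 21.8%, 1.43% and 0.283%. Median depths were 10719 UMIs in eng2 cells and 10059 in all sox3 cells. Most eng2 cells therefore had no *fgf8a* molecule captured, and the level of the group came from the smaller part of its cells. Only 87 of the 133 had no UMI of the hindbrain segment genes *egr2b*, *mafba*, *hoxb1a* and *hoxd4a*. The rest had at least 1, so that not all eng2 cells can be placed in the MHB and first rhombomere.

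The eng2 cells were not uniform. Of the 133, 30 also had a UMI of *otx2*, *otx1a* or *otx1b*, genes of the midbrain side of the organiser, and 103 had none. The ligand was at 184 CPM (159 to 212) in the cells without otx UMIs and at 8.8 CPM (3 UMIs, 1.81 to 25.7) in those with them, a ratio of 20.9 (7.05 to 102). The hindbrain-side homeobox gene *gbx2* had the same order over the groups and was at 69.97 CPM in the cells without otx UMIs and absent from the others, at least 7.95-fold higher with the absence set to 3 UMIs. The FGF-signalling modulator *cnpy1*, whose product acts on FGF receptors at the zebrafish MHB, had the reverse order, at 32.6 CPM without and 144 CPM with otx UMIs.

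The response genes did not divide along the same line. Their summed level was 237 CPM without and 199 CPM with otx UMIs, a ratio of 1.19 with an interval of 0.905 to 1.58. Among them, *spry2* (93.9 against 29.3 CPM, 3.2-fold, 1.67 to 6.89) and *dusp6* (44.1 against 17.6 CPM, 2.51-fold, 1.07 to 7.18) were higher in the cells without otx UMIs. *etv5a* was lower there, at 14.4 against 35.2 CPM, a ratio of 0.409 (0.179 to 0.956). The intervals of *etv4*, *etv5b*, *spry1* and *spry4* included 1. The split by otx genes was one of the alternatives fixed for *fgf8a*; reading the response genes along it was chosen after values were seen.

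Against the other sox3 cells at 16 hpf, the eng2 cells had more of several response genes. Past the fold used throughout (a ratio of 2 or more, or 0.5 or less, with at least 10 UMIs in the higher group), 3 of the 7 members tested were higher and 0 lower, where 1.62% of the 9862 genes tested were higher. They were *fgf8a*, *etv4* at 18.1 against 7.35 CPM (2.46-fold, 1.53 to 3.81) and *spry4*, a feedback antagonist of receptor signalling, at 13.7 against 3.11 CPM (4.42-fold, 2.46 to 7.64). Below that fold, *etv5b* was at 57.8 against 40.5 CPM (1.43-fold), *spry2* at 78 against 59.8 CPM (1.3-fold), and *etv5a* at 19.5 against 22.3 CPM. The summed response genes were 1.37-fold higher (1.21 to 1.54).

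At later stages eng2 cells were few. The 14 eng2 sox3 cells at 24 hpf had no *fgf8a* UMI, which allows up to 25.5 CPM, and their summed response genes were at 249 CPM against 169 CPM in other sox3 cells, a ratio of 1.48 (1.03 to 2.05). *spry2* was 1.94-fold higher there (1.1 to 3.18, from 16 UMIs). The 8 eng2 sox3 cells of 44 hpf gave a summed ratio of 1.44 (0.525 to 3.16). The absence of *fgf8a* from 14 cells and the near absence of eng2 cells themselves cannot be told apart from a difference in how far the dissected pieces reached forward at each stage.

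Grouping the 16 hpf sox3 cells by segmental genes gave an uneven map of the response. MHB-r1 cells had eng2 UMIs. Rhombomere (r) groups had UMIs of *hoxa2b* alone (r2), *egr2b* without *mafba* (r3) or *hoxb1a* (r4). Groups r5 to r7 had *egr2b* with *mafba* (r5), *mafba* without *egr2b* (r6) or *hoxd4a* (r7). The groups, MHB-r1 included, held 87 to 284 cells. The 199 cells that fit no group and the 189 that fit several were left out. Because r3 and r6 rest in part on a missing UMI, r5 cells with a missed molecule can fall into them. The r2 group rests on the absence of several genes, so that cells of r3 to r5 with missed molecules can fall into it. *fgf8a* was at 170 CPM (144 to 199.8) in the MHB-r1 group, and at 2.04 to 8.25 CPM in groups r2 to r7. The response genes summed to 235 CPM (204 to 269) in MHB-r1, 162 in r2, 160.3 in r3, 206 (177 to 237) in r4, 194 in r5, 184 in r6 and 125 (111 to 139) in r7. The posterior end was therefore lowest, with MHB-r1 1.89-fold (1.57 to 2.26) and r4 1.65-fold (1.37 to 1.99) above r7. The r2 (145 to 182) and r3 (144 to 178) groups, the most anterior after MHB-r1, were no higher than r4 to r6.

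Single response genes had different segmental orders. *spry4* was at 18.5 CPM (10.6 to 30.1) in MHB-r1, between 2.29 and 6.67 CPM in r2 to r6, and had no UMI in the 244 cells of r7, with an upper limit of 1.51 CPM. *etv4* ran from 15 CPM in MHB-r1 to 2.45 CPM in r7, with 11.1 and 10.4 CPM in r4 and r5, and most neighbouring intervals overlapped. *etv5a* was highest in r5, at 35 CPM (28.5 to 42.5), against 15.4 CPM in r2 and 15.1 CPM in r7. *spry2* was lowest in r7 (46.1 CPM) and r3 (49.9 CPM) and highest in MHB-r1 (84.4 CPM), r4 (78.9 CPM) and r6 (75.8 CPM). *dusp6* stayed between 23.9 and 38.9 CPM with no segment clear of all the others. Only *fgf8a* separated MHB-r1 from each other segment by more than 10-fold among the 10 genes.

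**Figure D2:**
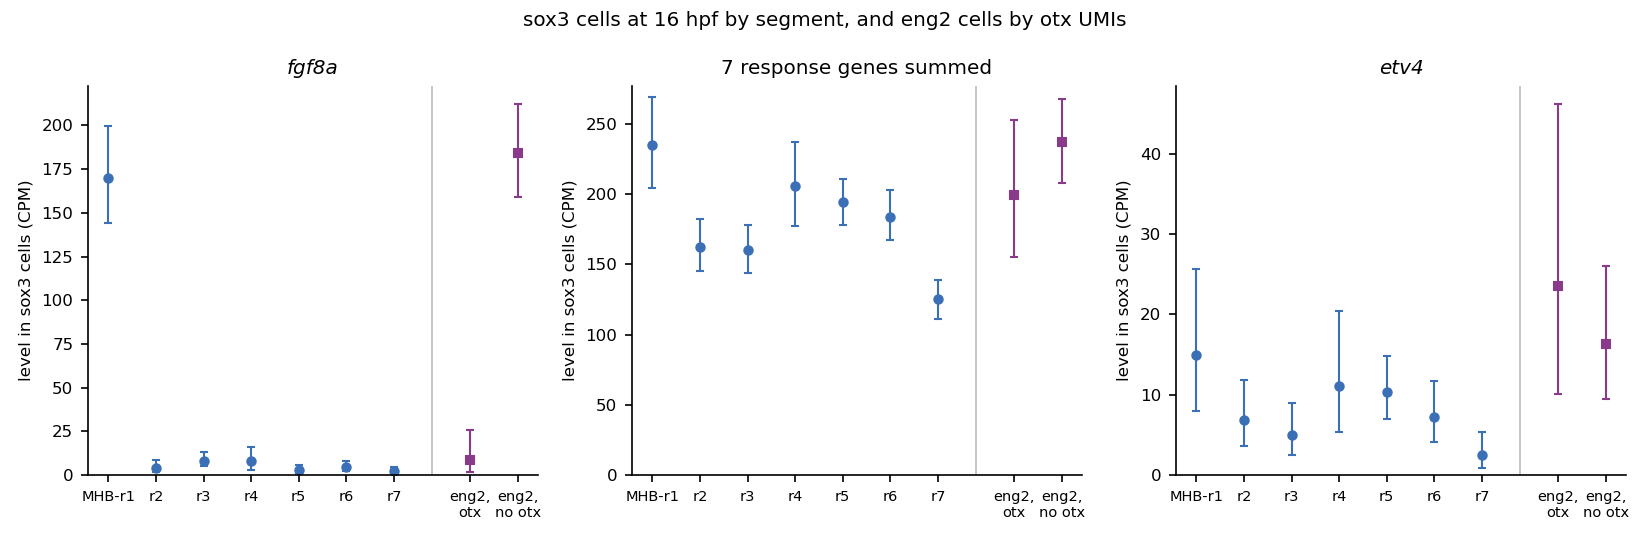
Level in CPM (y axis, linear from 0) of *fgf8a*, of the 7 response genes summed and of *etv4* in sox3 cells of 16 hpf grouped by segmental genes (circles) and in eng2 cells with and without otx UMIs (squares), with exact Poisson 95% intervals. *fgf8a* stands at 170 CPM in MHB-r1 and at most 8.25 CPM elsewhere, whereas the summed response genes range only from 125 to 235 CPM.

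UMIs of *fgf8a* at 16 hpf were also found in the floor plate-like group. Its cells came from a cluster led by *shha* and *shhb*, with 27 cells of 16 hpf, and a larger cluster led by *nkx2.9*, *nkx2.2b* and *nkx2.2a*, with 107. Both clusters held 8 of 8 floor plate markers, but the group cannot be read as the Shh-secreting ventral midline alone. Its 123 sox3 cells had 41.9 CPM (30.2 to 56.7), and none of the 86 cells at 24 hpf had a UMI. The 13 floor plate-like cells with eng2 UMIs had 163 CPM (101 to 249), from 21 UMIs in 5 cells. The 110 without had 24.1 CPM (14.9 to 36.8), from 21 UMIs in 11 cells, beside 5.58 CPM in all sox3 cells without eng2 UMIs. Cells with a missed eng2 molecule can fall among the 110, so that a site apart from the eng2 cells is not shown.

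Outside the neural tube, *fgf8a* belonged to the head mesenchyme-like cells. Their level was 133 CPM (121 to 147) at 16 hpf and 4.59 CPM (2.1 to 8.71) at 24 hpf, and no UMI was found at 44 hpf, when these cells were nearly all of a cluster led by haemoglobin genes (*hbbe1.1*, *hbae3*) that held 13 of the 15 mesenchyme markers. The 16 hpf signal came from a cluster led by *tmem88a*, *tnni1b*, *aldh1a2* and *nkx2.5*, genes of cardiac and lateral plate mesoderm, in which 142 of 326 cells, 43.6%, had an *fgf8a* UMI. The transcription factor gene *nkx2.5* marks heart progenitors. Its 76 cells had *fgf8a* at 342 CPM (300.4 to 388) and the 250 cells without it had 73.6 CPM (63 to 85.5), 4.64-fold apart (3.8 to 5.68). Epidermis-like cells were at 7.71 and 3.82 CPM at 16 and 24 hpf, and otic vesicle-like cells at 8.78 CPM at 24 hpf from 4 UMIs. The only 3 *fgf8a* UMIs at 44 hpf lay in 1 otic vesicle-like cell.

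The response genes differed along the same *nkx2.5* split. *etv4* (53.5 against 23.7 CPM, 2.26-fold, 1.45 to 3.48), *etv5a* (2.18-fold, 1.41 to 3.34) and *spry2* (2.18-fold, 1.41 to 3.34) were higher in the *nkx2.5* cells. *etv5b* was at 47.9 against 46.9 CPM and *dusp6* at 31 against 28 CPM, with intervals of the ratio that included 1. So did those of *spry1* (5.63 against 4.74 CPM) and *spry4*, which was lower in the *nkx2.5* cells (7.04 against 13.8 CPM, 0.511, 0.155 to 1.32). The sum was 252 against 166 CPM, 1.52-fold (1.26 to 1.81). The ligand gene *fgf10a*, a mesodermal FGF of limb and pharyngeal development, was 4.01-fold higher in the same cells (76 against 18.9 CPM). This split, and that of the epidermis-like cells given further on, was chosen after values of the clusters were seen.

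The ligand *fgf20a* was rare and neuronal. At 24 hpf 15 UMIs were counted in 14 cells, of which 9 were elavl3 cells, 64.3% (35.1 to 87.2) from a class that made up 8.73% of kept cells. Those 9 cells had a median of 11 *elavl3* UMIs and 0 *sox3* UMIs, so that they stood at the neuronal end of their class and not near its edge. The level was 6.63 CPM (3.18 to 12.2) in elavl3 cells against 0.0841 CPM (1 UMI) in sox3 cells, a ratio of 78.9 with a wide interval of 11.2 to 3423.

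As a share of cells, *fgf20a* was detected in 4.41% (2.04 to 8.21) of the 204 elavl3 cells, in 0.0694% of sox3 cells and in 0.364% of non-neural cells at median depths of 6681.5, 7419.5 and 10053.5 UMIs. With thinning the share in elavl3 cells was 1.47%, 3 of 204 cells. At 16 hpf both *fgf20a* UMIs of the library were in elavl3 cells, although only 20 such cells were present. At 44 hpf, with 1226 elavl3 cells, 1 UMI was found in them, 0.321 CPM and 0.0484 times the 24 hpf level (0.00112 to 0.341). The median depth of these later neurons was 2378 UMIs. With thinning, 1 of 898 of them had a UMI, 0.111%, so that this ligand was seen more often in the neurons of 24 hpf at either depth, on very few molecules.

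Its paralogue *fgf20b* lay elsewhere. Non-neural cells held 96.1% of its UMIs at 16 hpf and 84.9% at 24 hpf, with levels of 29.6 CPM (26.2 to 33.4) and 30.8 CPM (26.5 to 35.7), and 0.623 CPM at 44 hpf from 1 UMI. Sox3 cells had 0.641, 0.757 and 0.33 CPM at the 3 stages. The ratios of non-neural to sox3 cells were 46.2 (25.4 to 93.6) at 16 hpf and 40.7 (21 to 90.6) at 24 hpf.

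The tissue that carried *fgf20b* changed between the stages, while its level over all non-neural cells stayed close. Epidermis-like cells had 61.7 CPM at 16 hpf and 51.6 CPM at 24 hpf, with overlapping intervals. Mesenchyme-like cells went from 48.2 CPM (40.8 to 56.6) to 1.02 CPM (2 UMIs), and neural crest-like cells from 1.53 CPM (0.56 to 3.32) to 53.9 CPM (43.5 to 66.1). Different clusters made up the crest-like cells of the 2 stages: all 353 of 16 hpf were in a cluster led by *foxd3*, *ednrab* and *sox10*, which held 37 of those of 24 hpf. The crest signal came from a cluster led by *grem2b*, *fgfbp2a*, *barx1* and *dlx5a*, genes of the crest that fills the pharyngeal arches: 67.8 CPM (54.5 to 83.5) over its 110 cells of 24 hpf, 46 of which, 41.8%, had a UMI. That cluster had 0 cells at 16 hpf. Among sox3 cells of that library the share with a UMI was 0.625%, at a lower median depth, and after thinning the shares were 13.6% in all crest-like cells and 0.278% in sox3 cells.

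Within the epidermis-like cells, *fgf20b* followed markers of the pharyngeal arches, the pouches and arch ectoderm that shape jaw and gills. At 16 hpf the 48 cells with UMIs of 2 or more of these markers had 209 CPM (168 to 258) and the other 162 had 17.8 CPM (11.5 to 26.3), 11.7-fold apart (7.45 to 19.1). At 24 hpf the values were 156 CPM in 36 cells and 16.2 CPM in 104 cells, a 9.64-fold ratio (5.69 to 17.1). Median depths of the cells compared were close, 8350 against 8399.5 UMIs at 16 hpf and 10215 against 10791.5 UMIs at 24 hpf. The cluster called epidermis-like thus holds more than 1 tissue, with 10 of 11 epidermis markers, 4 of 6 arch markers and 3 of 5 lateral line markers at least 2-fold above other cells.

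The response genes followed this split only in part. *etv5b* was 2.05-fold (1.24 to 3.36) and *dusp6* 1.74-fold (1.12 to 2.65) higher in the arch-marker cells at 16 hpf, whereas *spry2* was lower, at 36.1 against 94.9 CPM (0.38-fold, 0.207 to 0.65). At 24 hpf *etv4* was at 151 against 78.4 CPM (1.93-fold, 1.37 to 2.7) and *etv5b* at 90.7 against 46.9 CPM (1.93-fold, 1.23 to 3), and *spry2* no longer differed beyond counting error. The sums were 1.11-fold (0.922 to 1.34) apart at 16 hpf and 1.43-fold (1.2 to 1.69) at 24 hpf. The ligand gene *fgf24*, which acts in zebrafish fin bud and pharyngeal endoderm, was higher in the arch-marker cells at both stages, at 38.5 against 7.14 CPM and 88.2 against 4.26 CPM.

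**Figure D3:**
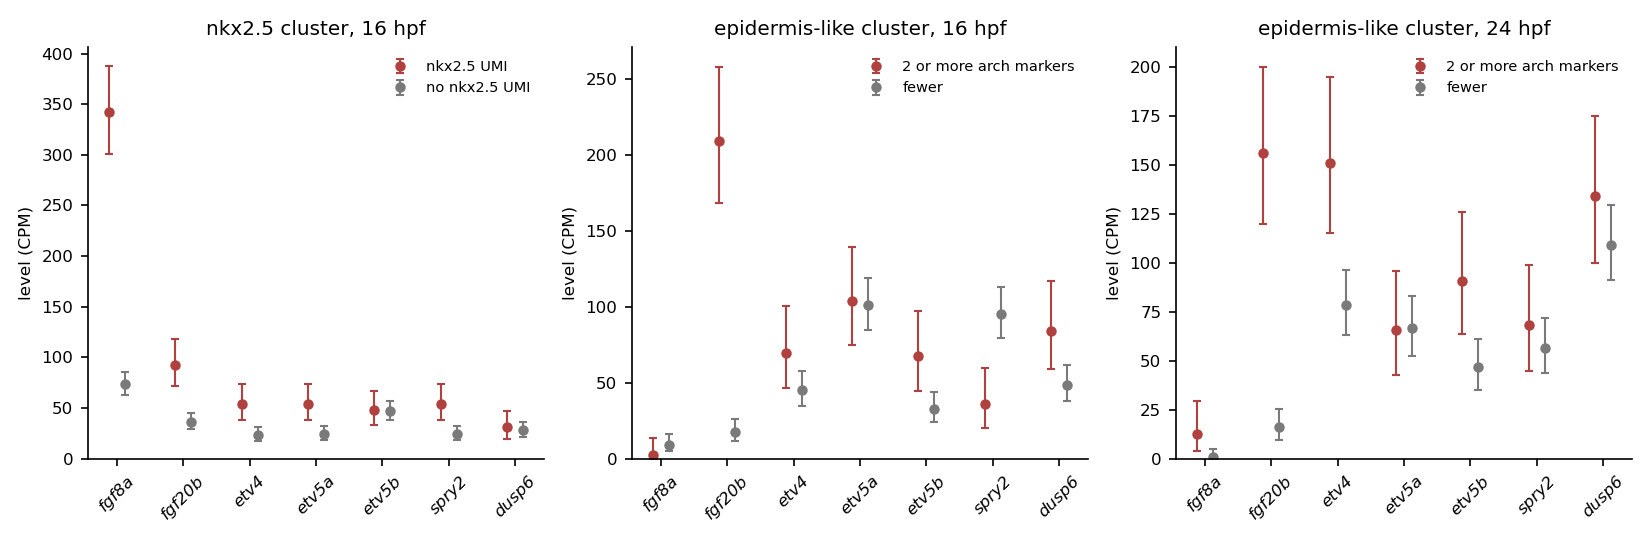
Level in CPM (y axis, linear from 0) of 7 genes in the *nkx2.5* cluster of 16 hpf, divided by an *nkx2.5* UMI, and in epidermis-like cells of 16 and 24 hpf, divided by pharyngeal arch markers, with exact Poisson 95% intervals. *fgf8a* is 4.64-fold apart in the first panel and *fgf20b* 11.7- and 9.64-fold in the other panels, wider than any response gene shown.

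A neuronal signal of *fgf20b* at 24 hpf rested on few cells. Elavl3 cells had 19 UMIs in 6 cells, 12.6 CPM (7.59 to 19.7), 16.7 times sox3 cells (7.18 to 41.8), but 12 of the 19 were in 1 cell with 14365 UMIs in all, 10 of *sox3* and 13 of *elavl3*, and among the highest doublet scores. Without that cell, an alternative added after seeing the data, the level was 4.69 CPM from 7 UMIs and the ratio 6.19 (1.96 to 18.7). With thinning the ratio was 1.76 with an interval of 0.0358 to 17.8, so that the count was too low to place it. At 44 hpf the 1226 elavl3 cells held 5 UMIs in 2 cells.

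In progenitors the total of response transcripts was level from 16 to 24 hpf and somewhat lower at 44 hpf, while its composition moved. In sox3 cells the 7 genes summed to 171 CPM (165 to 177) at 16 hpf, 169.7 CPM (162 to 177) at 24 hpf and 143 CPM (129.9 to 157) at 44 hpf. The ratio was 0.992 (0.937 to 1.05) for 24 over 16 hpf and 0.843 (0.758 to 0.936) for 44 over 24 hpf. The last value depended on which cells count as progenitors: with only cells that had *sox3* and no *elavl3* UMI it was 1 (0.87 to 1.15).

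Among the ETS genes, *etv4*, which encodes a transcription factor needed together with its relatives for FGF-dependent patterning, had the steepest decline in sox3 cells. It was at 8.22 CPM (6.92 to 9.69), 3.53 CPM (2.55 to 4.78) and 1.32 CPM (0.359 to 3.38) at 16, 24 and 44 hpf. Its relative *etv5a* stayed at 22.1, 23.9 and 24.4 CPM. *etv5b*, the gene used in the study to find segment centres, was at 41.9 CPM (38.9 to 45.1), 45.3 CPM (41.6 to 49.3) and 51.4 CPM (43.7 to 60.1).

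The feedback genes also parted. *spry2* was at 61.3, 57.7 and 52.7 CPM and *spry1* at 1.34, 1.35 and 1.32 CPM in sox3 cells of the 3 stages. *spry4* went from 3.96 CPM (3.08 to 5.02) to 1.6 CPM (0.962 to 2.5) and 0.989 CPM from 3 UMIs. *dusp6*, which inactivates ERK, was steady at 32.3 and 36.3 CPM and then 10.9 CPM (7.49 to 15.3) at 44 hpf.

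By the fold rule, 3 of the 8 members tested were lower at 24 than at 16 hpf, where 18.5% of all genes tested were lower, and 0 were higher, where 11.2% were. The lower ones were *fgf8a*, *etv4* (0.43, 0.297 to 0.611) and *spry4* (0.403, 0.229 to 0.679). From 24 to 44 hpf 2 of 7 were lower, against 24% of all genes, namely *etv4* (0.373, 0.0972 to 1.03) and *dusp6* (0.3, 0.204 to 0.428). The median log2 ratio of the members was -0.04 against -0.21 for all genes tested in the first step and -0.13 against -0.35 in the second. The members did not move together: *fgf8a*, *etv4*, *spry4* and, later, *dusp6* were lower, and the other members tested stayed within the fold. The sox3 cells held 133 eng2 cells at 16 hpf and 14 at 24 hpf. At 16 hpf eng2 cells had 195 of the 283 *fgf8a* UMIs, while other sox3 cells had 88 then and 1 at 24 hpf. *etv4* and *spry4* were also higher in eng2 cells at 16 hpf. The other sox3 cells of 16 hpf had *etv4* at 7.35 CPM and *spry4* at 3.11 CPM, beside 3.53 and 1.6 CPM in all sox3 cells of 24 hpf. Ratios between the stages without eng2 cells were not computed, and the part of the smaller share of eng2 cells was not tested.

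As a sum, the response genes were lower in neurons than in progenitors, though not each gene was. The 7 genes summed to 100.2 CPM (84.8 to 117) in elavl3 cells of 24 hpf, 0.59 times the sox3 cells (0.497 to 0.697), and to 32.5 CPM (26.4 to 39.4) at 44 hpf, 0.227 times (0.181 to 0.282). The 20 elavl3 cells of 16 hpf gave a summed ratio of 0.649 (0.401 to 0.993). The order of the sums was thus the same at each stage and the distance widest at 44 hpf. The share of elavl3 cells near the cut to sox3 cells was also lowest at 44 hpf, and its part was not tested.

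At 24 hpf, 1 of 7 members tested was lower in elavl3 than in sox3 cells, where 23.6% of genes tested were lower, and 3 were higher, where 22.8% were. The lower was *spry2*, at 15.9 against 57.7 CPM (0.276, 0.176 to 0.414). The higher were the ligands *fgf20a* and *fgf20b*, and *etv4*, at 8.62 CPM (4.59 to 14.7) against 3.53 CPM, 2.44-fold (1.2 to 4.64). Without the 1 cell that held 12 of its 19 UMIs, *fgf20b* had 7 UMIs in elavl3 cells and would not reach the count minimum. Both ligands reached that minimum only in the elavl3 cells, *fgf20a* with exactly 10 UMIs, so that the count of 3 is not read as a result. Of the 5 response genes tested, 1 was higher and 1 lower. *etv5b* was at 27.2 against 45.3 CPM (0.6) and *dusp6* at 24.5 against 36.3 CPM (0.677), both short of the fold. Below the count minimum were *spry4*, with 7 against 19 UMIs, and *spry1*, with 4 against 16. The elavl3 cells held 1507271 UMIs of all genes and the sox3 cells 11888800, so that both genes were higher in elavl3 cells as CPM.

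At 44 hpf 3 of 4 members tested were lower in elavl3 cells, against 22.4% of genes tested. These were *etv5b* at 5.79 against 51.4 CPM (0.113, 0.065 to 0.184), *spry2* at 9.64 against 52.7 CPM (0.183) and *etv5a* at 6.75 against 24.4 CPM (0.277). The median log2 ratio of the 4 members was -2.15, beside 0.09 over all 9034 genes tested. *etv5b* had the lowest ratio of the response genes that reached the count minimum. Under that minimum, *spry4* (7 against 3 UMIs) and *spry1* (5 against 4) were higher in elavl3 cells and *etv4* (1 against 4) lower. The 2 classes held 3111295 and 3034071 UMIs of all genes.

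Between the elavl3 cells of the 2 later stages the decline was broad, although those of 24 hpf were more often near the cut to sox3 cells. From 24 to 44 hpf 6 of the 7 members tested were lower in elavl3 cells, where 22.2% of genes tested were lower: *fgf20a*, *fgf20b* (0.127), *etv4* (0.0373), *etv5a* (0.407), *etv5b* (0.213) and *dusp6* (0.249). *fgf20b* was among them only through the 1 cell of 24 hpf with most of its UMIs, without which it had 7 and would not be tested. *fgf20a* was tested only through its 10 UMIs at 24 hpf, the count minimum. Of the 5 response genes tested, 4 were lower. *spry2* was at 15.9 CPM and then 9.64 CPM. The sum at 44 hpf was 0.324 times that at 24 hpf (0.249 to 0.42), whereas the same ratio in sox3 cells was 0.843. Cranial ganglia-like cells, which are neurons and precursors outside the hindbrain, kept more of the response, with sums of 155 CPM (132 to 181) at 24 hpf and 88.5 CPM (64.5 to 118) at 44 hpf. They had *etv4* at 21.7 and 15.7 CPM and *dusp6* at 32.6 and 27.5 CPM.

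**Figure D4:**
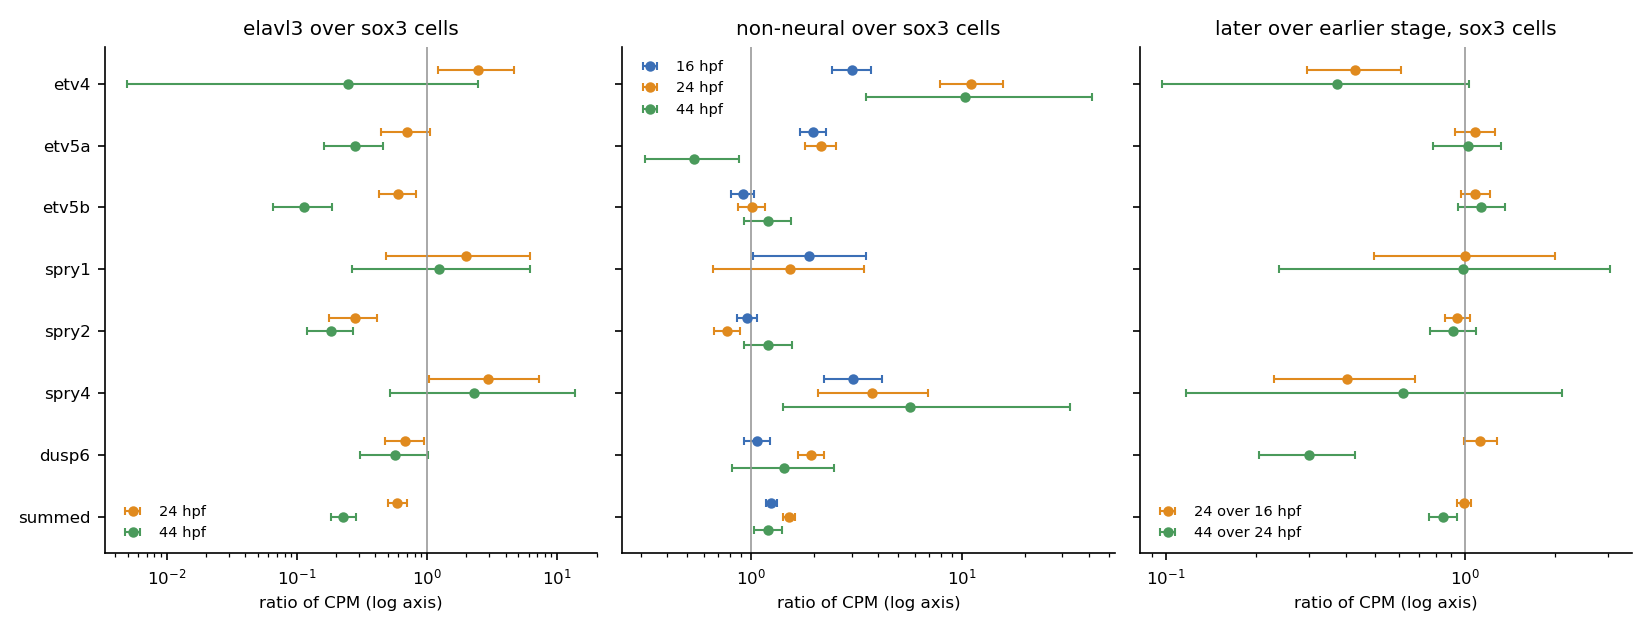
Ratio of CPM (x axis, logarithmic) of each response gene and their sum for elavl3 over sox3 cells, non-neural over sox3 cells and later over earlier stage in sox3 cells, with exact conditional binomial 95% intervals and a line at 1. *spry1* in non-neural cells of 44 hpf had 0 UMIs and is not drawn. *etv5b* and *spry2* lie left of the line in neurons at both stages and *etv4* right of it in non-neural cells at all 3.

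As a sum, the response genes were higher outside the neural tube. Summed over non-neural cells they reached 214 CPM (205 to 224) at 16 hpf, 258 CPM (245 to 271) at 24 hpf and 173 CPM (154 to 195) at 44 hpf, 1.25, 1.52 and 1.21 times the sox3 cells. Of 9 members tested at 16 hpf 4 were higher, beside 19.9% of all genes: *fgf8a* (2.91), *fgf20b*, *etv4* (3, 2.42 to 3.73) and *spry4* (3.04). At 24 hpf 5 of 9 were higher, beside 22.8%: *fgf8a* (38.7, 6.15 to 1608, over 1 UMI in sox3 cells), *fgf20b*, *etv4* (11, 7.86 to 15.6), *etv5a* (2.14) and *spry4* (3.75). At 44 hpf 1 of 5 was higher, beside 20.6%, again *etv4* (10.4, 3.53 to 41.5). Not every member had this order: *spry2* was at 44.6 CPM in non-neural against 57.7 CPM in sox3 cells at 24 hpf, *etv5a* at 13.1 against 24.4 CPM at 44 hpf, and *spry1* had no UMI in non-neural cells at 44 hpf against 1.32 CPM.

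*etv4* and *spry4* had the widest ratios of the response genes at 16 hpf, 3 and 3.04, and *etv4* alone at 24 hpf. *etv4* was at 24.6, 38.7 and 13.7 CPM in non-neural cells at 16, 24 and 44 hpf. In epidermis-like cells it went from 50.7 CPM (40.8 to 62.1) to 96.8 CPM (82 to 113), with a UMI in 50% of the 140 cells of 24 hpf (17.9% when thinned) against 2.71% of sox3 cells (0.625% when thinned). Neural crest-like cells, at 7.89 and 5.22 CPM, were close to sox3 cells.

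Of the tissues compared at 16 and 24 hpf, otic vesicle- and epidermis-like cells had the highest summed response. Otic vesicle-like cells had 479.7 CPM (366 to 618) in 14 cells at 16 hpf, 325 CPM (275 to 382) in 40 cells at 24 hpf and 247 CPM (153 to 377) in 22 cells at 44 hpf. Epidermis-like cells had 344 CPM (318 to 372) at 16 hpf, and at 24 hpf 403 CPM (372 to 436) against the 325 CPM of the otic cells, with intervals that overlapped. Mesenchyme-like cells had 182 and 217 CPM, and neural crest-like cells 174 and 165 CPM, near the sox3 cells.

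Single genes behaved differently between tissues. *dusp6* went from 56.7 CPM (46.3 to 68.8) to 115 CPM (99.1 to 133) in epidermis-like cells and from 28.7 CPM to 113 CPM (90.4 to 139) in the *nkx2.5* cluster between 16 and 24 hpf. *etv5a* went from 31.3 CPM to 119 CPM (96.2 to 146) in that cluster but from 101 CPM (87.2 to 117) to 66.2 CPM (54.1 to 80.3) in epidermis-like cells. *fgf8a* and *fgf20b* in the same *nkx2.5* cluster were near absent at 24 hpf. The ligand gene *fgf10a* was then at 30.6 CPM (11 UMIs) in its cells with *nkx2.5* and at 11.9 CPM (5 UMIs) in those without. Cells with an *nkx2.5* UMI were 76 of the 326 of this cluster at 16 hpf and 35 of the 81 at 24 hpf. Causes of these differences were not tested. *etv5b* had the least contrast, at 38.4, 45.6 and 61.7 CPM in non-neural cells of the 3 stages beside 41.9, 45.3 and 51.4 CPM in sox3 cells.

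**Figure D5:**
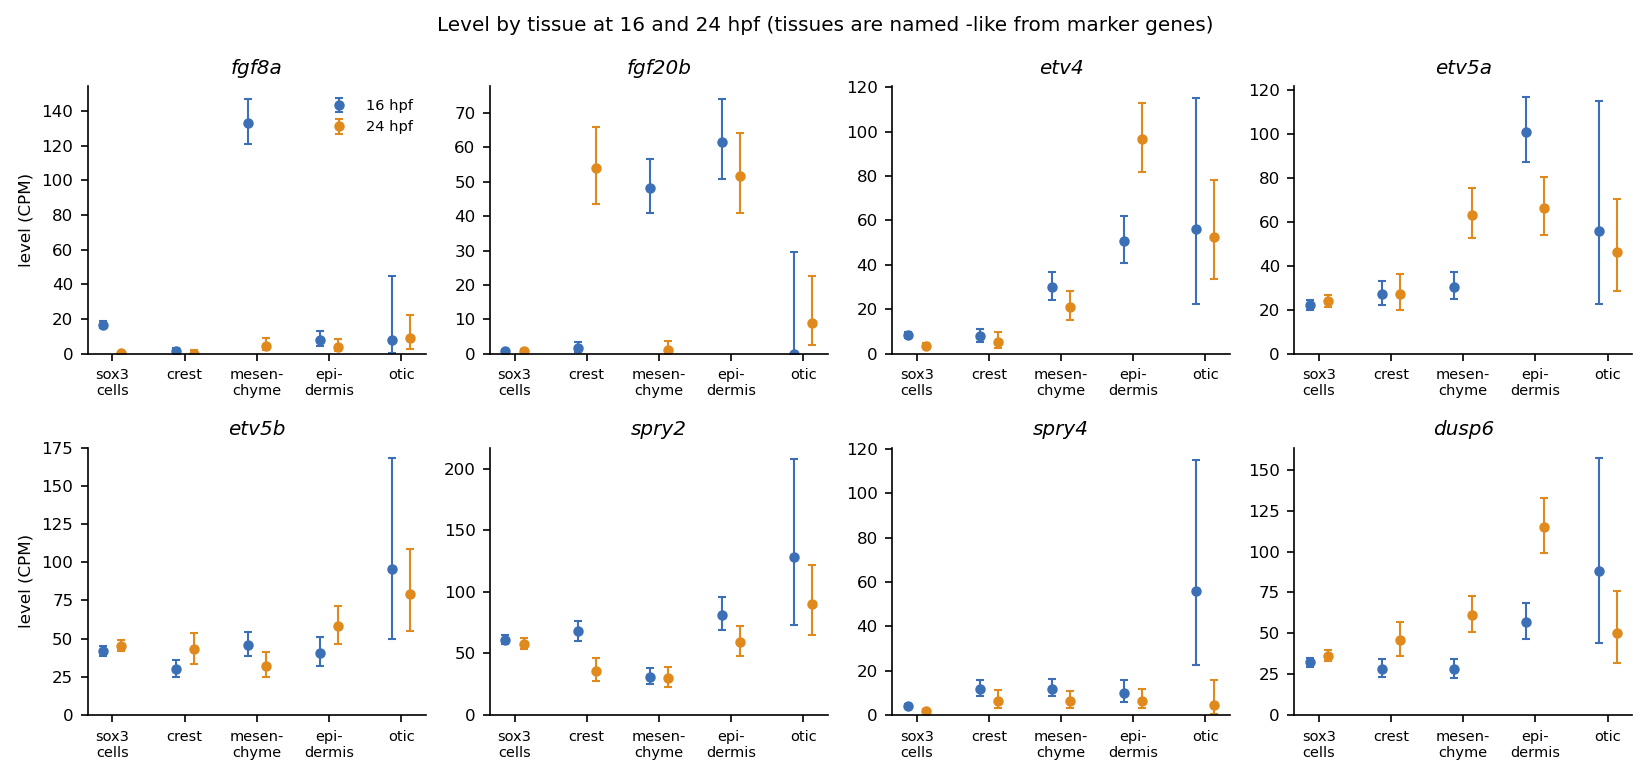
Level in CPM (y axis, linear, a different range per panel) of 8 genes in sox3 cells and in neural crest-, mesenchyme-, epidermis- and otic vesicle-like cells (x axis) at 16 and 24 hpf (colours), with exact Poisson 95% intervals. *fgf8a* is high in mesenchyme at 16 hpf alone, *fgf20b* is low in crest at 16 hpf and 53.9 CPM there at 24 hpf, and *etv4* is highest in epidermis at 24 hpf.

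Along the dorsoventral axis, sox3 cells with *zic2b* and no *dbx1a* or *dbx1b* UMI were taken as dorsal and the converse as ventral. At 16 hpf the summed response was the same in both within counting error, with a ratio of 1.04 (0.934 to 1.16). At 24 hpf the dorsal cells were lower, at 139 against 194 CPM, 0.715 times (0.634 to 0.807). *etv5b* (31 against 54.6 CPM, 0.568, 0.447 to 0.724) and *spry2* (48 against 69.7 CPM, 0.689, 0.563 to 0.847) accounted for most of the distance, while *dusp6* was at 32.6 and 36.2 CPM. Of the 5 members tested there 1 passed the fold in the other direction, *etv4* at 3.44 against 1.38 CPM (19 and 3 UMIs, 2.5-fold, 0.737 to 13.2), and 0 were lower by the fold, where 6.96% and 2.81% of all genes tested were higher and lower in dorsal cells. At 44 hpf, with 78 dorsal and 147 ventral cells, the ratio of the sums was 1.24 (0.844 to 1.81).

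To ask what else differed in cells where *etv5b* was detected, sox3 cells without eng2 UMIs were divided by a UMI of this gene. *etv5b* itself is thus no result. At 24 hpf 387 cells had it and 1039 did not, with medians of 8785 and 6998 UMIs, since deeper cells are more likely to show any gene. The 6 other response genes summed to 143 against 114 CPM, 1.25-fold (1.12 to 1.4), but after thinning all cells to 2000 UMIs, an alternative added after seeing the data, the ratio was 1.03 (0.683 to 1.49). At 44 hpf (134 and 852 cells, medians 3429 and 2686.5 UMIs) it was 1.74-fold (1.3 to 2.3), and 1.91-fold (1.2 to 2.93) after thinning. Cells were divided again after thinning, which left an *etv5b* UMI in 110 cells at 24 hpf and 84 at 44 hpf. Cells with a UMI at full depth could thus fall in the group without it. The thinned interval at 24 hpf holds both 1 and 1.25, so that thinning cannot decide there. Co-detection of the response genes in the same progenitors was clear of counting error at both depths only at 44 hpf.

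Few genes passed the fold in this division. At 24 hpf 1 of 5 members was higher, *spry1*, with 10 against 6 UMIs (3.63-fold, 1.19 to 12.1), where 1.3% of all genes were higher. It was tested only because it reached the minimum of 10 UMIs in the cells where it was high, and it was not read after thinning. That count is therefore not read as a result. *etv5a* was 1.49-fold (1.16 to 1.9) and *spry2* 1.24-fold (1.05 to 1.45) higher. At 44 hpf neither of the 2 members tested passed, with *spry2* at 1.72-fold (1.16 to 2.5).

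Genes read beside the members in that division were the candidate targets *fsta* and *metrn*, boundary genes and proneural genes. *fsta*, a follistatin that binds activins and BMPs, was 1.64-fold higher at 24 hpf (1.47 to 1.83), and 1.24-fold (0.815 to 1.82) after thinning. *metrn*, which encodes the secreted protein meteorin, was at 1.14 and 1.34 times at 24 and 44 hpf. The boundary genes *rfng*, *rac3b* and *rasgef1ba* had ratios of 0.84, 0.975 and 0.963 at 24 hpf.

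The proneural genes given here differed in direction in the *etv5b* cells, and the glial genes *fabp7a* and *slc1a2b* were higher at 44 hpf. The list fixed for this division also held *ascl1a*, *ascl1b.1*, *slc1a3b*, *atp1a1b*, *gfap*, *fstb* and *sgca*, whose values are not given here. *neurog1* was at 1.46 and 1.14 times at 24 and 44 hpf. *atoh1a*, the proneural gene of the rhombic lip, was at 0.414 and 0.328 times, and *neurod4*, a gene of differentiating neurons, at 0.827 and 0.45 times. After thinning *atoh1a* was at 0.651 (0.398 to 1.01) at 24 hpf, where the interval included 1, and 0.184 (0.0495 to 0.478) at 44 hpf, and *neurod4* was at 0.689 (0.478 to 0.965) and 0.463 (0.297 to 0.692). The radial glia genes *fabp7a* and *slc1a2b*, a fatty acid-binding protein and a glutamate transporter, were 1.89-fold and 2.14-fold (1.72 to 2.64) higher at 44 hpf, and 1.46-fold and 2.02-fold after thinning. At 24 hpf the thinned ratios of *fabp7a* and *slc1a2b* were 0.98 and 0.825, with intervals that included 1.

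Of 61 further genes of the FGF pathway, 59 were listed. By the same fold rule 6 of 25 tested were higher and 1 lower in eng2 than in other sox3 cells at 16 hpf, where 1.62% and 6.73% of all genes tested were. In non-neural over sox3 cells 16 of 34 were higher and 4 lower at 16 hpf, beside 19.9% and 7.89% of all genes, and 17 of 33 were higher and 5 lower at 24 hpf, beside 22.8% and 10.6%. In elavl3 over sox3 cells 7 of 25 were higher and 5 lower at 24 hpf, beside 22.8% and 23.6%, and 7 of 23 were higher and 8 lower at 44 hpf, beside 24.3% and 22.4%. In sox3 cells 6 of 33 were higher and 10 lower at 24 than at 16 hpf, beside 11.2% and 18.5%, and 5 of 25 were higher and 8 lower at 44 than at 24 hpf, beside 8.13% and 24%. None of the 21 other secreted ligands reached 20 CPM in a main class. The nearest relative of *fgf8a*, *fgf8b*, was at 18.1 CPM in eng2 cells and 0.38 CPM in other sox3 cells at 16 hpf, 47.5-fold (19 to 142) apart, and had no UMI in sox3 cells at the later stages. It is named for its likeness to *fgf8a*, after its values were seen.

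Of the receptors 5 reached 20 CPM in a main class, and they differed in where they were found. *fgfr2* was at 34.1, 69.8 and 92.6 CPM in sox3 cells of the 3 stages, so that it was higher at each later stage, and at 9.95 and 6.75 CPM in elavl3 cells of 24 and 44 hpf, 0.143 and 0.0729 times. *fgfr3* was at 18.1, 45.2 and 22.4 CPM in sox3 cells and 24.5 and 4.18 CPM in elavl3 cells. *fgfr4* was at 45.8, 71.6 and 84 CPM in sox3 cells and 51.1 and 48.2 CPM in elavl3 cells, 0.714 and 0.574 times. *fgfr1a* was at 16.7, 12.8 and 10.9 CPM in sox3 cells, 7.3 and 1.61 CPM in elavl3 cells and 29, 21.1 and 12.5 CPM in non-neural cells. *fgfrl1a*, a receptor relative without a kinase domain, was at 6.64, 3.45 and 0.33 CPM in sox3 cells and 28.9, 33.9 and 46.8 CPM in non-neural cells. In non-neural cells *fgfr2* was at 45.8, 60.8 and 74.2 CPM, *fgfr3* at 11.4, 5.83 and 5.61 CPM and *fgfr4* at 46.7, 36.2 and 33 CPM. At 16 hpf *fgfr3* was at 3.61 CPM in eng2 cells against 19.4 CPM in other sox3 cells, 0.186 times (0.06 to 0.439).

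Several modulators of the pathway were far apart between eng2 and other sox3 cells at 16 hpf. *il17rd*, which encodes the membrane antagonist Sef, was at 69.3 against 3.68 CPM (18.9-fold, 13.5 to 26.6), *cnpy1* at 59.96 against 2.41 CPM (24.9-fold, 16.8 to 37.6), and *flrt3*, a membrane protein that promotes FGF signalling, at 146 against 45.9 CPM (3.18-fold, 2.71 to 3.72). The inhibitor gene *spred2a* (2.15-fold) and *sulf1*, which encodes a heparan sulfate endosulfatase (2-fold), were also higher there. In neurons of 24 hpf the intracellular FGF genes *fgf13a* and *fgf13b*, which bind sodium channels and are not secreted signals, were at 37.8 and 39.8 CPM against 1.01 and 0.925 CPM in sox3 cells. The Ras-MAPK inhibitor gene *spred3* was at 27.9 against 0.168 CPM there, a feedback gene with the opposite order to *spry2*. *fgf12b*, another intracellular FGF gene, was at 29.2 against 7.4 CPM.

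The other modulators that reached 20 CPM divided mainly between progenitors and surrounding tissue. The phosphatase gene *dusp5* was at 27.7, 47.5 and 81.7 CPM in non-neural cells against 2.68, 2.52 and 6.59 CPM in sox3 cells, the same side as *etv4*. The FGF-binding protein genes were low in sox3 cells, with *fgfbp2a* at 22.1 CPM in non-neural cells at 24 hpf and *fgfbp2b* at 139 CPM at 44 hpf. The endosulfatase genes *sulf2a* and *sulf2b* had the reverse order, at 29.6 and 42.7 CPM in sox3 cells against 3.94 and 3.26 CPM in non-neural cells at 24 hpf. *dusp1* (116 against 304 CPM) and the receptor adaptor gene *frs2b* (13.9 against 37.1 CPM) were lower in elavl3 than in sox3 cells of 24 hpf. *spred1* (16.6 against 15.6 CPM) and *spred2b* (6.63 against 8.5 CPM) were within the fold there.

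Over 33 groups of at least 30 cells, the 3 patterns most studied here were compared with 4462 genes by Pearson correlation of log2(CPM + 5), as a description. The groups of a stage share a library, and some cells belong to more than 1 group. The genes most like *fgf8a* were *vmp1* (0.71) and *nog1*, *dynll1*, *fhdc2* and *lyrm4* (0.70 each). Those most like *etv5b* were *ctdsp1* (0.78), *COX7A2 (1 of many)*, *mkrn4* and *sdc4* (0.77 each) and *clint1a* (0.76), beside which the member *spry2* stood at 0.76. The summed response genes were most like *ptbp1a*, *clint1a* and *tmem263* (0.87 each), *perp* (0.86) and *atox1* (0.83). The ligands were less like that sum, at 0.33 for *fgf8a*, 0.37 for *fgf20b* and -0.03 for *fgf20a*. The last value says little, since *fgf20a* reached at most 6.63 CPM in a group, close to the 5 CPM added. The genes compared had at least 50 CPM in 1 group.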

How the data were processed

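Single cells of zebrafish hindbrain and surrounding tissue were profiled in 3 droplet libraries, 1 per stage (16, 24 and 44 hpf). The authors deposited tables of raw counts (UMIs per gene and cell), made with Cell Ranger on GRCz10 per the submitters' processing notes. Its version is not given in the sources used here. No cell annotation was used. The 10 genes, the gene lists and the classes were chosen with earlier results of these data known.

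Cells beyond 3 median absolute deviations in UMIs, genes or mitochondrial share (scaled to a standard deviation) were set aside (204, 231 and 432 cells). Merged cells were clustered in Seurat 5.3.0 (R 4.3.3) on 2000 variable genes without FGF genes, 30 components and resolution 0.8. A cluster was named for the marker list with the largest share of genes seen in at least 10% of its cells and 2-fold above the other cells, with at least 3 such markers. Doublets were not removed: Scrublet in scanpy 1.11.5 called 0.404%, 0.513% and 0.0323% of cells, too few to rely on, so removing the highest scores (59, 44 and 77 cells) was an alternative. UMIs were summed per group, divided by the total and given as CPM, with exact Poisson 95% intervals. Ratios have exact conditional binomial and shares exact Clopper-Pearson intervals, computed in SciPy 1.17.1 on Python 3.11.15, and all cover counting error only. The ratio and interval calculations were tested on simulated data.

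All 10 members were computed in every comparison, but not every member is printed in each. Other pathway genes were named at 20 CPM or more in a class, and the rest counted, with *fgf8b*, *fgf10a* and *fgf24* named after their values were seen. Alternatives were no removal of cells, other resolutions, cells with only *sox3* or only *elavl3*, thinning to 2000 UMIs, the mean CPM of single cells, a total without mitochondrial, ribosomal protein and haemoglobin genes, doublet removal, at least 2 eng2 UMIs and eng2 cells without otx UMIs. The symbols *metrnla*, *fgfbp1a* and *fgfbp3* were not listed in the count files under these spellings and so could not be analysed.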

Additional observations from a re-analysis of the deposited data

How the results depend on the processing

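Of 85 values of the 10 summed ratios under the alternatives, 79 stayed within the counting interval of the value given, 5 left it and 1 changed direction. For ratios between stages and of elavl3 over sox3 cells, the other clustering resolutions gave the same cells and so the same values. These repeats are counted as within the interval, here and for single members, and are no separate check. The ratio of 44 over 24 hpf in sox3 cells, 0.843, was 1 (0.87 to 1.15) with cells that had *sox3* and no *elavl3* UMI. With the same choice the ratio of elavl3 to sox3 cells was 0.452 in place of 0.59 at 24 hpf and 0.165 in place of 0.227 at 44 hpf, and non-neural over sox3 cells at 44 hpf was 1.01 in place of 1.21. That last ratio was 1.45 with a total without mitochondrial, ribosomal protein and haemoglobin genes. Thinning put 24 over 16 hpf in sox3 cells at 1.1 (0.972 to 1.24) in place of 0.992. Causes were not tested. Of 202 values of single members, 191 stayed within the interval and none changed direction. Among the 11 that left it were *fgf20b* under thinning (non-neural over sox3 cells 127 at 16 hpf and 19 at 24 hpf, 1.76 for elavl3 over sox3 cells at 24 hpf), the ratio of *fgf8a* in eng2 cells (36 with at least 2 eng2 UMIs, 33 without otx UMIs) and that of *spry4* in non-neural cells at 16 hpf (2.02 when thinned). No paired analysis was possible because each stage has 1 library. The depth limits what *fgf20a*, *spry1* and, at 44 hpf, *etv4* and *spry4* can show, since each had 36 UMIs or fewer in a library of 24 or 44 hpf.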
